A study of Mus musculus with 4 samples.

Results

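The Notch ligand gene Jag1, the receptor genes Notch1 and Notch2 and the target gene Hes1 were examined for Gata6 binding in mouse keratinocytes. Peaks were taken where their midpoint fell in a fixed window around each gene on build mm9, whatever their other values: 26.16 to 26.51 Mb of chromosome 2 for Notch1, 97.67 to 98.1 Mb of chromosome 3 for Notch2, 136.7 to 137.15 Mb of chromosome 2 for Jag1 and 29.85 to 30.28 Mb of chromosome 16 for Hes1. The 4 windows held 31 of all listed peaks, which numbered 11962 on the autosomes and 175 on chromosome X: 8 at Jag1, 6 at Notch1, 5 at Notch2 and 12 at Hes1. The windows reached farther from Jag1 and Hes1 than from the receptor genes, so these counts are not on equal terms. With an equal margin of 200 kb on each side of the approximate gene, they were 7 at Jag1, 6 at Notch1, 6 at Notch2 and 11 at Hes1. These stretches still differed in length, at 430 kb for Jag1, 450 kb for Notch1, 530 kb for Notch2 and 400 kb for Hes1. The peak densities of the chromosomes differed as well.

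The cells were primary keratinocytes from dorsal skin on a C57BL6/CBA background, grown on irradiated 3T3-J2 fibroblast feeders. All of them carried the K14deltaNLef1 transgene, in which the keratin 14 promoter drives a truncated form of the Wnt effector Lef1 in basal epidermal cells, and all overexpressed Gata6 after lentiviral infection. The series has 4 libraries: 2 Gata6 immunoprecipitations with different antibodies (R&D Systems and Cell Signaling), 1 Flag immunoprecipitation as the negative control and 1 input DNA. The measurement used is 1 overlap list of peaks for the whole series. It gives no value per library, replicate error, control background or read depth for a peak. How the libraries and controls entered the list was not stated, and no cells without Gata6 overexpression were compared.

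Notch signalling passes between touching cells. A ligand such as Jag1 on one cell binds a Notch receptor on its neighbour, the receptor is cut inside the membrane, and the freed intracellular part enters the nucleus, where with the DNA-binding protein Rbpj it switches on targets such as Hes1, a basic helix-loop-helix repressor. In the epidermis the pathway is known for driving the step from basal to suprabasal, differentiating cells. Gata6 is a zinc-finger transcription factor that binds DNA with the core letters GATA.

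Gene positions were known only as approximate mm9 values, given to 10 kb, so distances to genes below carry an uncertainty of about 5 kb, and no exon, intron or UTR could be assigned to a peak. The sequences under the peaks are not printed because no mm9 genome was used here. The RefSeq promoter table (build GRCm38.p6) held 3 of the 4 genes and had no Hes1 entry. The stretches of 250 bases before the starts of the receptor genes are shown, because both receptor genes had listed peaks inside them at about 7.77 to 11.6 kb past the start. They come from chr2:26503823-26504072 on the minus strand (Notch1) and chr3:98013288-98013537 on the plus strand (Notch2), coordinates that cannot be set against mm9 peaks.
Notch1: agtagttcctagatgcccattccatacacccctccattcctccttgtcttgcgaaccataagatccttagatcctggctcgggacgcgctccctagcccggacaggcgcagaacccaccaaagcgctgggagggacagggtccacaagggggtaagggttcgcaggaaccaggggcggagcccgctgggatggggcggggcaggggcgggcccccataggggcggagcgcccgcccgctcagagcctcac
Notch2: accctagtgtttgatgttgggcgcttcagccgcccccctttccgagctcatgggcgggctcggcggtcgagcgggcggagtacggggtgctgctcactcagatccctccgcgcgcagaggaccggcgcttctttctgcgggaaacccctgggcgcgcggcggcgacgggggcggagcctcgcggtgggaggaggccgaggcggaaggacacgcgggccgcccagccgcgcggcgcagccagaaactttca
Neither stretch, nor that of Jag1, contained the letters GATA on either strand, so nothing is in capitals. These letters were present in 53.6% of the 32851 promoter stretches of this length in the table. The longer words AGATAA or AGATAG, or TGATAA or TGATAG, each of which contains the core, were present in 26.5% of them. The Notch1 and Notch2 stretches were 66% and 72% G or C, against a median of 52.4%. The absence of the letters describes this stretch only.

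Peaks were denser at all 4 loci than over their chromosomes, by point estimate. Together the windows, 1660 kb long, held 31 peaks where the density of their chromosomes would give 8.02, a ratio of 3.86 (95% Poisson interval 2.62 to 5.48). The interval covers counting error only and treats peaks as independent, which close neighbours are not, so it is too narrow. The genes and windows were also chosen with earlier results of these data known, so neither the ratio nor its interval is free of that choice. Hes1 was the densest with 27.9 peaks per Mb (14.4 to 48.8), against 5.93 per Mb over chromosome 16. Jag1 had 17.8 per Mb (7.67 to 35.0) and Notch1 had 17.1 per Mb (6.29 to 37.3), against 4.59 per Mb over chromosome 2. Notch2 was the least dense with 11.6 per Mb (3.78 to 27.1), against 4.20 per Mb over chromosome 3. The ratios to the chromosome were thus 4.71 (2.43 to 8.22) at Hes1, 3.88 (1.67 to 7.64) at Jag1, 3.74 (1.37 to 8.13) at Notch1 and 2.77 (0.90 to 6.46) at Notch2. The 4 intervals overlapped and no difference between loci was tested, so the order of the loci is by point estimate only. The interval of Notch2 included 1.

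The counts were also read against windows of the same length, since peaks are unevenly spread. Among all windows of 430 kb started every 10 kb along chromosome 16, 2.54% held at least the 12 peaks of Hes1, with a median of 1 peak and a maximum of 19. For Jag1, 5.36% of the 450-kb windows of chromosome 2 held at least 8 peaks. For Notch1, 7.14% of the 350-kb windows of chromosome 2 held at least 6. For Notch2, 15.2% of the 430-kb windows of chromosome 3 held at least 5, so its count was near the upper part of the ordinary range. With intervals over 83 bp only, the shares came to 5.94% for Hes1 and 8.83% for Jag1, and over windows of all autosomes 1.54% for Hes1. These shares are descriptions of the chromosomes, not tests, and the windows were not restricted to gene-bearing sequence.

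**Figure D1:**
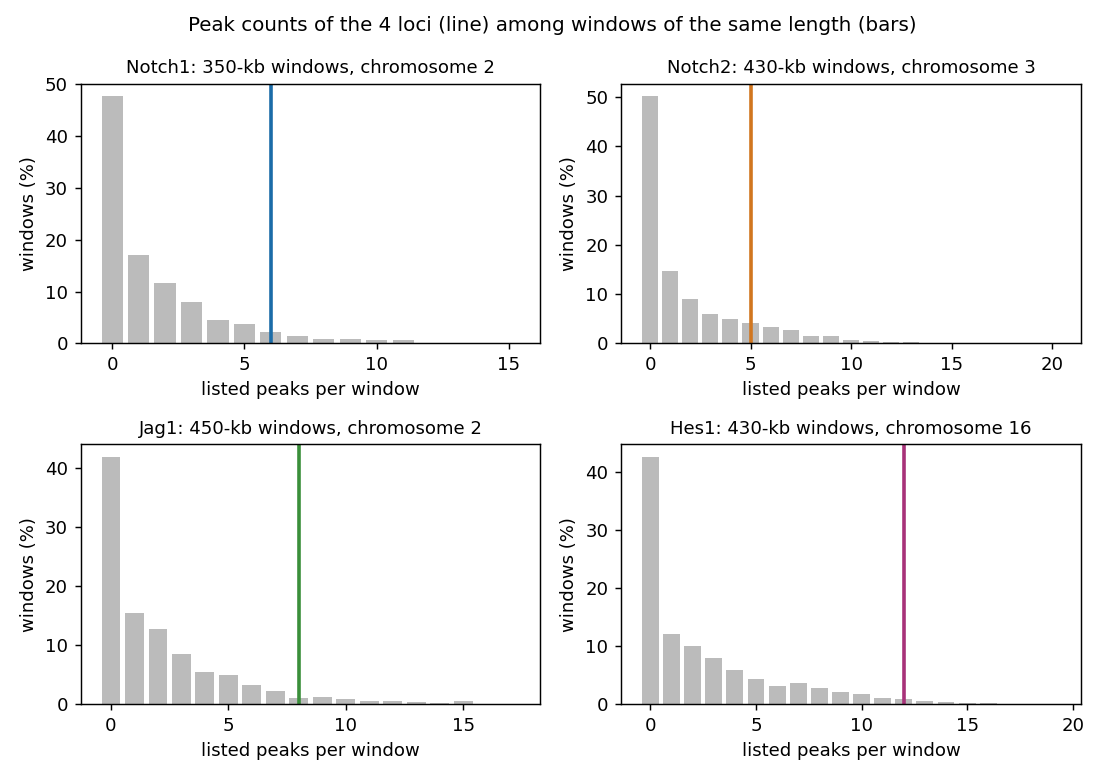
Share of windows (%) by number of listed peaks per window, for windows of the same length as each locus started every 10 kb on its chromosome; the coloured line is the locus itself. The lines stand at 6 (Notch1), 5 (Notch2), 8 (Jag1) and 12 (Hes1) peaks, and Hes1 lies farthest into the thin upper tail, with 2.54% of windows at or above it.

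The density around Hes1 reached beyond the gene. Each margin includes the narrower ones. With a margin of 500 kb on each side of the approximate gene position, 28 peaks were found in 1000 kb. This was 4.72 times the chromosome's density (3.14 to 6.83), and 11 of the 28 lay within 200 kb. With 1000 kb the count rose only to 31. The ratio there, 2.62 (1.78 to 3.71), thus rests on the peaks within 500 kb. Measured against the 5 Mb around it, without the window itself, the Hes1 ratio was 2.60 (1.34 to 4.55). Jag1 stood out more against its surroundings than against its chromosome, with a ratio of 5.39 (2.33 to 10.6). Against their surroundings the receptor genes came to 2.85 (1.04 to 6.20) for Notch1 and 1.77 (0.58 to 4.13) for Notch2. With a margin of 1000 kb the intervals of Notch2, at 1.34 (0.69 to 2.35), and of Jag1, at 1.61 (0.90 to 2.66), included 1. So did those of Notch1, Notch2 and Jag1 at 50 kb, of Notch2 and Jag1 at 100 kb and of Notch2 at 200 kb, where 2 to 6 peaks were counted.

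**Figure D2:**
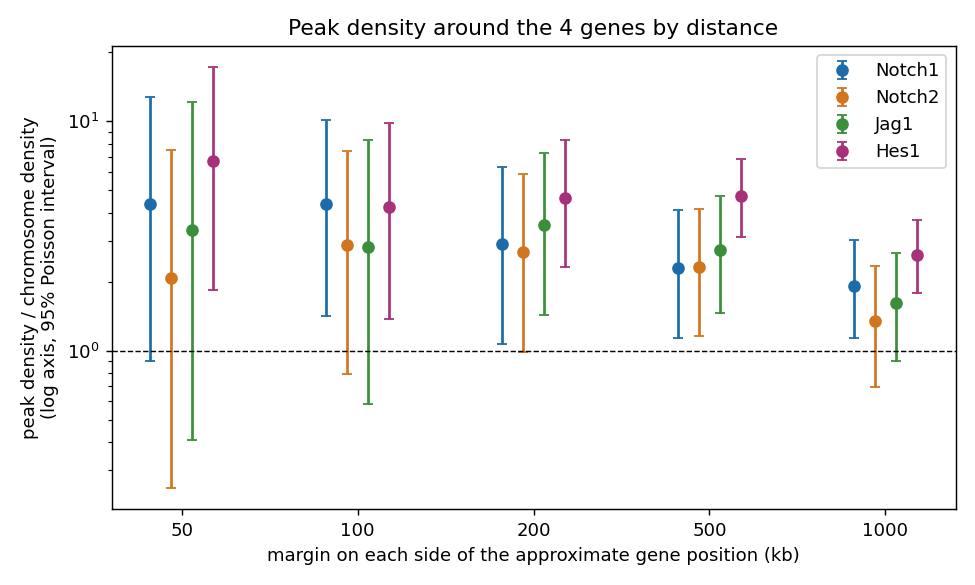
Ratio of peak density around each gene to the density of its chromosome (log axis), for margins of 50 to 1000 kb on each side of the approximate gene position; bars are 95% Poisson intervals of the count and the dashed line marks a ratio of 1. Each margin includes the narrower ones. Hes1 keeps a ratio of 4.72 at 500 kb, and the ratios of all 4 genes are lower at 1000 kb than at 500 kb.

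At Jag1, which encodes the ligand, no listed peak fell inside the approximate gene (136.91 to 136.94 Mb). With 10 kb added on each side, 50 kb in all, there was also none. The density of chromosome 2 would give 0.229 peaks there, so an absence is ordinary for so short a stretch. The gene lies on the minus strand, so higher coordinates are upstream of its start. The nearest peaks formed a pair about 35 to 37 kb upstream, from 136974813 to 136974895 and from 136976799 to 136976882, with midpoints 1.99 kb apart. These 2 intervals measured 83 and 84 bp. Past the end of the gene, a single peak of 166 bp lay about 56.5 kb away, from 136853398 to 136853563. Farther on, 2 close pairs followed. The first, 131 kb and 132 kb past the end, ran from 136778029 to 136778185 and from 136778937 to 136779101, and its midpoints, 0.912 kb apart, were the closest at any of the loci. The second pair lay at 136745338 to 136745468 and 136746395 to 136746447, with midpoints 1.02 kb apart and widths of 131 and 53 bp. On this side of Jag1 the next protein-coding gene in the GRCm38 gene order is Slx4ip. Which gene these peaks belong to was not tested. The eighth peak, from 137149225 to 137149387, sat just inside the upper edge of the window, and its near neighbour 4.20 kb away lay outside. Of the 8 peaks of Jag1, 7 had a neighbour within 5 kb, against 24.4% of the peaks of chromosome 2. With intervals over 83 bp only, 3 of 6 did, against 22.6%, since the 53-bp and 83-bp intervals each belonged to a pair.

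At Notch1, the receptor best known for epidermal differentiation, 3 of the 6 peaks formed a tight group inside the approximate gene (26.31 to 26.36 Mb, minus strand). They ran from 26348812 to 26348962, from 26350556 to 26350709 and from 26352151 to 26352304, at about 11.1, 9.37 and 7.77 kb past the approximate start. Their midpoints were 1.75 and 1.60 kb apart, and their widths of 151, 154 and 154 bp were nearly alike. Runs of at least 3 peaks with no step over 5 kb took in 4.36% of all listed peaks, and 14 of the 167 such runs lay on chromosome 2. The other 3 Notch1 peaks were all upstream, on the side where the next protein-coding genes in the GRCm38 gene order are Egfl7, which encodes a secreted endothelial factor, and Agpat2, an enzyme of glycerolipid synthesis. They lay about 52.3 kb (26412218 to 26412364), 94.1 kb (26454014 to 26454171) and 111 kb (26470909 to 26471008) from the start of Notch1. Which gene such an upstream peak belongs to was not tested. Downstream of the group, no peak was listed for 246 kb, a stretch at least as long as which separated 20.9% of neighbouring peaks on chromosome 2.

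Notch2, the second receptor, resembled Notch1 in one respect: its peaks lay upstream or near the start, with none in the later part of the gene or beyond. A single peak of 141 bp, from 97831545 to 97831685, was inside the approximate gene (97.82 to 97.95 Mb, plus strand), about 11.6 kb past its start. The 4 others were upstream, at about 17.6 kb (97802315 to 97802433), 69.4 kb (97750502 to 97750634), 78.0 kb (97741965 to 97742125) and 118 kb (97702468 to 97702609). On that side the next protein-coding genes in the same gene order are Gm5544 and Sec22b. Which gene these peaks belong to was not tested. After the peak inside the gene no other was listed for 347 kb, which takes in the remainder of the gene, and 14.9% of the distances on chromosome 3 were as long. Unlike the other 3 loci, Notch2 had no peak with a neighbour within 5 kb, against 21.5% of the peaks of chromosome 3. Its closest pair was 8.52 kb apart. With 5 peaks, neither the absence of close pairs nor the one-sided placing could be tested.

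Hes1, the transcriptional target, had 2 listed peaks near its approximate position. The peaks from 30065364 to 30065524 and from 30069792 to 30069936 both lay within about 5 kb of that position, 30.07 Mb, which is no closer than the position is known, and were 4.42 kb apart. They measured 161 and 145 bp. With 2 peaks about 14.3 and 16.5 kb below the gene, from 30053460 to 30053541 and from 30055663 to 30055813, they formed a group of 4 over 16.5 kb. A second collection of 5 peaks over 59.3 kb, from 29886950 to 29946289, lay about 124 to 183 kb below the gene. A single peak at 30009131 to 30009273 stood between the collections. On the higher side only 2 peaks were listed, about 117 kb (30186752 to 30186874) and 205 kb (30274527 to 30274594) away. The next protein-coding genes in GRCm38 order are Opa1, which encodes a mitochondrial fusion protein, on the lower side and Cpn2 on the higher side. Which gene the peaks of this window belong to was not tested. Of the 12 peaks, 6 had a neighbour within 5 kb, against 23.6% of the peaks of chromosome 16. With intervals over 83 bp only, 2 of 9 did, against 21.1%, so the Hes1 count then lay near the share of the chromosome.

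**Figure D3:**
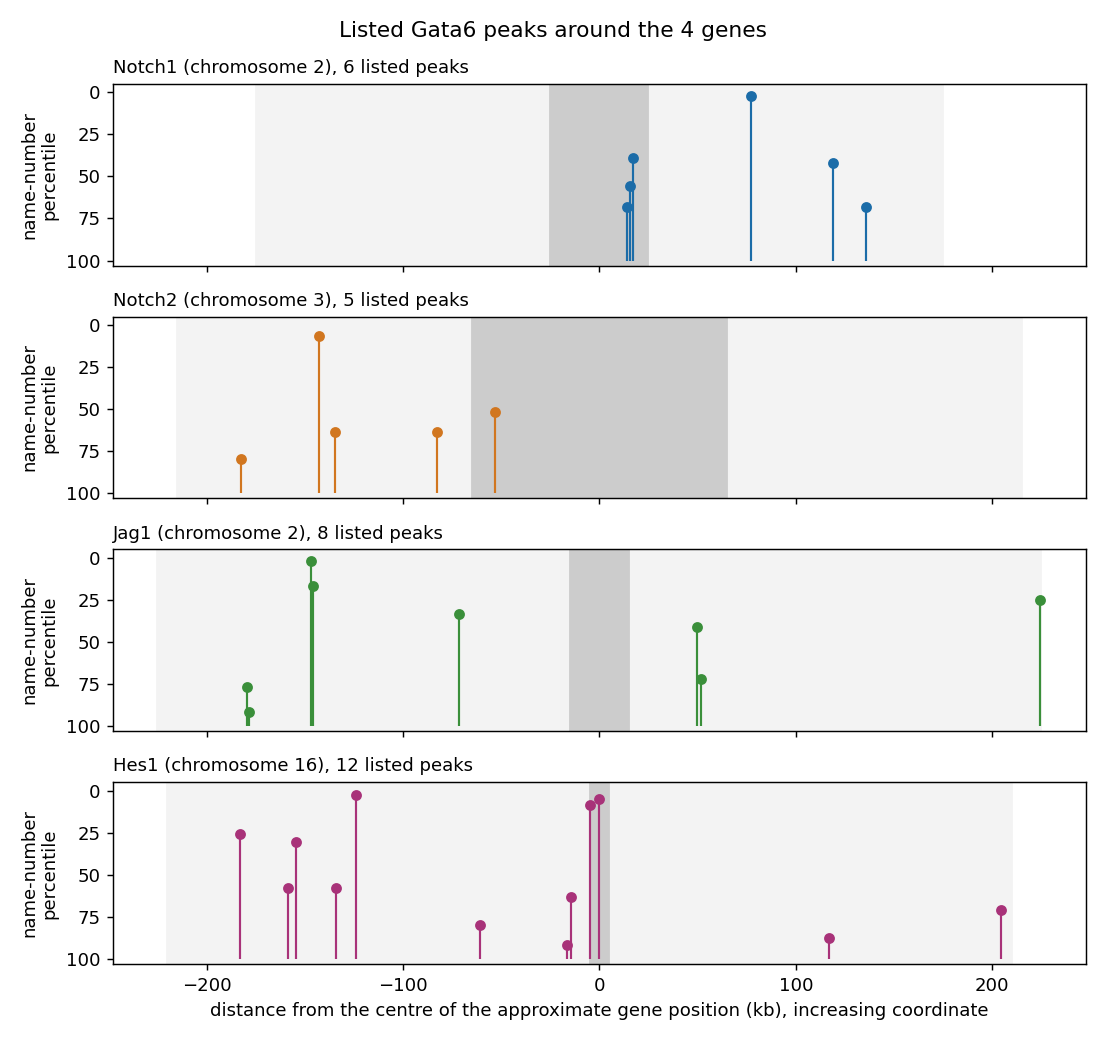
Listed peaks at the 4 loci by distance (kb) from the centre of the approximate gene position (dark band; Hes1, given as a single position, is drawn 10 kb wide), inside the windows (light band); the height of each point is the percentile of the peak's name number on its chromosome, with low numbers at the top. The features to see are the group of 3 inside Notch1 and the 2 low-numbered peaks near Hes1. No peak lies inside Jag1, where the density of its chromosome would give 0.229 even with 10 kb added on each side.

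Over the 4 loci, 16 of 31 peaks (51.6%, exact binomial 95% interval 33.1 to 69.8) had a neighbour within 5 kb, against 23.2% of all listed peaks. With intervals over 83 bp only, the count was 8 of 26 (30.8%, exact binomial 95% interval 14.3 to 51.8) against 21.2%, and this interval held the share of the whole list. The 16 were the group of 3 at Notch1 and 13 members of pairs. Since neighbours come together, the peaks are not independent and the interval is too narrow. Windows with many peaks also hold more close neighbours by construction, and the share was not compared with other dense windows.

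Each deposited peak carries a whole number in its name, counted separately for each chromosome. The labels and the list do not say what it counts. Every one of the 4 loci held at least 1 peak with a number from 1 to 50, a limit chosen after the values were seen: 1 at Jag1, 1 at Notch1, 1 at Notch2 and 3 at Hes1. These 6 of 31 peaks (19.4%, exact binomial 95% interval 7.45 to 37.5) compare with 7.76% of all listed peaks, which is just inside the interval. The share differs by chromosome, since the numbers restart on each. It was 45 of 818 on chromosome 2, 48 of 650 on 3, 49 of 560 on 16 and 45 of 175 on X. Where the baseline falls against the interval thus depends on the chromosomes taken. At least 1 such peak was held by 8.11% of windows of the Notch1 length and 10.3% of windows of the Jag1 length on chromosome 2, and by 9.60% of windows of the Notch2 length on chromosome 3. At least 3 were held by 1.65% of windows of the Hes1 length on chromosome 16. These counts rest on the limit: with numbers 1 to 25, Hes1 held 1 and Notch2 held 0, and 1 of the Hes1 peaks is numbered exactly 50.

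At the receptor loci the lowest number belonged to a peak outside the gene. Outside lay 3 of the 6 peaks of Notch1 and 4 of the 5 of Notch2. Jag1 had no peak inside, so its lowest number could only lie outside. This placing was not tested. At Jag1, number 18 belonged to the far pair about 132 kb past the end of the gene, and its partner had number 156. At Notch1, number 23 belonged to the peak about 52.3 kb upstream, while the 3 peaks inside the gene had numbers 806, 592 and 378. At Notch2, number 42 belonged to the peak about 78.0 kb upstream, and the peak inside the gene had number 425. At Hes1 the lowest number, 14, also lay apart from the gene, about 124 kb below it. Numbers 50 and 27 were those of the 2 peaks near the approximate position of Hes1, and 50 is the limit itself. As ranks among the listed peaks of their chromosome, number 18 was at the 1.71 percentile, number 23 at 2.32, number 42 at 6.46, and numbers 14, 27 and 50 at 2.50, 4.82 and 8.75.

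The remaining numbers were spread widely. The median percentile was 37.2 at Jag1 (range 1.71 to 91.6), 49.0 at Notch1 (2.32 to 68.5), 63.4 at Notch2 (6.46 to 79.4) and 58.0 at Hes1 (2.50 to 91.8). Without the numbers 1 to 50 the medians were 41.0 at Jag1, 55.8 at Notch1, 63.5 at Notch2 and 62.9 at Hes1. With intervals over 83 bp only, the Hes1 median was 32.1. The highest number, 1566 at Jag1, was that of the 53-bp peak. Consecutive numbers occurred between separate peaks: 574 and 575 at Notch2 were 51.8 kb apart, and 420 and 421 at Hes1 had the peak numbered 182 between them. Sorted by number, the peaks of chromosomes 2, 3 and 16 formed 63, 67 and 68 series of rising position, and each of these consecutive pairs lay within a single series.

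The pooled median width of the 4 loci was close to that of the list, while the locus medians lay on both sides of their chromosomes. With 5 to 12 peaks per locus, these differences were not tested. The median over the 31 peaks was 142 bp (range 35 to 166). By locus it was 144 bp at Jag1, 152.5 bp at Notch1, 141 bp at Notch2 and 130 bp at Hes1, against 143 bp over chromosome 2, 142 bp over chromosome 3 and 141 bp over chromosome 16. Intervals of 83 bp or less numbered 5 (16.1%, exact binomial 95% interval 5.45 to 33.7), against 9.11% of all listed peaks, and lay at Jag1 (2) and Hes1 (3). At Hes1 they were 3 of 12 peaks, against 53 of 560 on chromosome 16. At Jag1 they were 2 of 8, against 83 of 818 on chromosome 2. The receptor loci held none. The narrowest, 35 bp from 29911383 to 29911417, belonged to the far collection below Hes1. The lowest number among the narrow intervals was 403, and over the whole list 1.27% of the 942 peaks numbered 1 to 50 were this narrow. The 6 peaks numbered 1 to 50 had a median width of 152 bp and the others 137 bp.

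**Figure D4:**
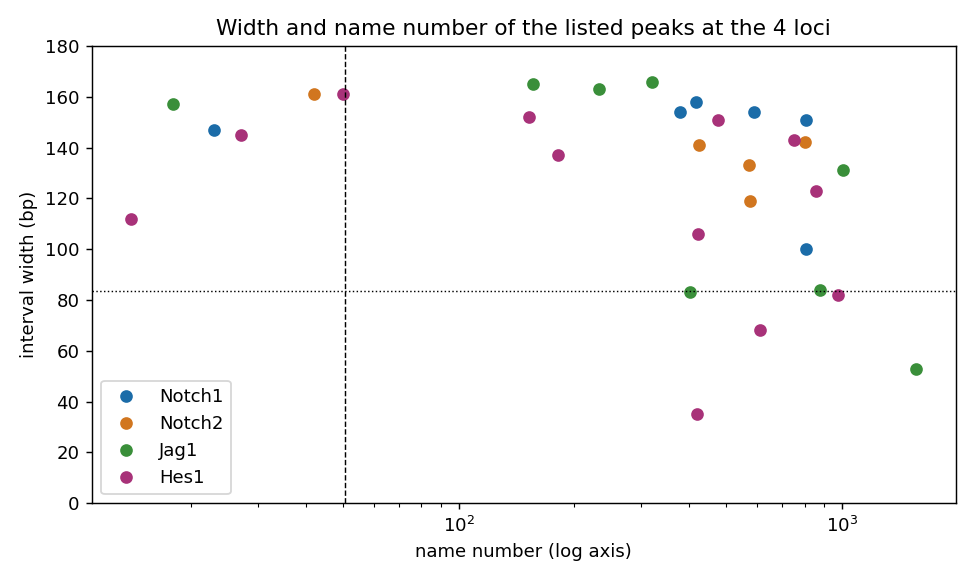
Interval width (bp) against name number (log axis) for the 31 peaks of the 4 loci, coloured by gene; the dashed line separates numbers 1 to 50 and the dotted line widths of 83 bp or less. The 5 narrow intervals all lie at numbers of 403 or above, and the 6 low-numbered peaks are all wider than 100 bp.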

How the data were processed

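Gata6 ChIP-seq was made from 2 Gata6 libraries, 1 Flag library and 1 input library. The extract protocol in the labels names truncated Lef1 as the precipitated protein, but the antibody labels (Gata6 or Flag) were followed. BWA, HOMER and build mm9 are named in the submitters' processing notes. Neither versions nor the calling threshold nor the lists overlapped were stated in the sources used here. The list holds 12137 peaks. The score deposited by the authors is 0 in every row. Depth is unknown.

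Peaks were assigned by midpoint, and coordinates are 1-based. Chromosome density is the number of peaks over the span from first to last peak. Intervals are exact 95% Poisson or Clopper-Pearson intervals. Windows of the same length were started every 10 kb. Gene positions and windows came with the choice of the 4 genes. Genes and windows were chosen with earlier results of these data known. No test was possible over libraries. Other Notch pathway genes were not analysed, for want of an mm9 annotation. Every peak of the 4 windows is given. Python 3.11.15, NumPy 2.4.6, pandas 2.3.3, SciPy 1.17.1 and matplotlib 3.10.9 were used, and the density code was tested on simulated data.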

Additional observations from a re-analysis of the deposited data

How the results depend on the processing

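No paired analysis was possible because the list holds no values per library, and for the same reason no library could be left out. Of 80 alternative values, 63 stayed within a tolerance and 17 moved past it. The tolerance was the Poisson interval for density ratios, the SD of the widths of a locus for widths and 1.5 times for the rest. All 32 alternative density ratios stayed inside the interval of their locus, between 1.77 and 6.75. These intervals are wide, 1.37 to 8.13 at Notch1, so staying inside them is a weak check. With a margin of 50 kb the intervals of Notch1 (0.90 to 12.7) and Jag1 (0.41 to 12.1) came to include 1. Of the 32 ratios, 3 moved by over 1.5 times: Notch1 to 2.28 with a margin of 500 kb, and Notch2 to 1.77 and Hes1 to 2.60 against the surrounding 5 Mb. With peaks over 83 bp only, the share of windows with as many peaks rose to 8.83% at Jag1 and 5.94% at Hes1, and peaks with a neighbour within 5 kb came to 3 of 6 at Jag1 and 2 of 9 at Hes1, where fewer peaks are counted. The median percentile of Hes1 was then 32.1. Over all autosomes 1.54% of windows matched Hes1. With neighbours within 1 kb the counts were 0 at Notch1, 2 at Jag1 and 0 at Hes1, and within 20 kb 5 at Notch1 and 2 at Notch2. Dividing the name number by the highest of the chromosome gave medians of 21.6 at Notch1, 33.9 at Notch2, 15.4 at Jag1 and 26.7 at Hes1, on another scale by construction. With numbers 1 to 25, a limit added after the data were seen, Notch2 had 0 and Hes1 had 1.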
